A study of Mus musculus with 5 samples.

Results

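The cells described here are the 1650 day 0 cells of the 3T3-L1 line that lay below set levels of the smooth muscle actin gene Acta2 and of genes of late cell division. They were chosen from the 3247 barcodes of the day 0 library, within a series of 21895 barcodes in all. A member had at least 500 detected genes, at most 20% of its UMIs from mitochondrially encoded genes and at least 10000 UMIs. It also had fewer than 2000 counts per 1000000 of its own UMIs (CPM) from 10 genes of mitosis and late cell cycle (Mki67, Top2a, Cdk1, Ccnb1, Ccnb2, Birc5, Ube2c, Cenpf, Nusap1 and Tpx2), and fewer than 3000 CPM from Acta2. Of the listed barcodes, 3210 met the gene and mitochondrial limits, 3182 of these the UMI limit and 2867 of these the division limit. They carry the working name non-contractile non-dividing preadipocytes and are called members below. The 1217 non-dividing cells above the Acta2 limit are called contractile cells and the 315 cells above the division limit dividing cells, as names for these limits only.

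A preadipocyte is a fibroblast committed to the fat lineage that holds off differentiation until hormones induce it. Dlk1 encodes a membrane protein that restrains this step and whose expression is lost as cells differentiate, whereas PPARγ, encoded by Pparg, is the nuclear receptor that drives it and Fabp4 is one of its classical targets. Fibroblasts of this kind can also take on a contractile programme of actins, myosin light chains and their partners, which serum response factor controls through CArG boxes in gene promoters, and they secrete chemokines such as CCL2 and matrix proteins such as osteopontin, encoded by Spp1.

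The study followed adipogenesis of 3T3-L1, a mouse fibroblast line, with and without a polymer named P-G3, by droplet-based single-cell RNA sequencing that counts transcript 3′ ends. There were 5 groups with 1 library each. Day 0 cells were confluent and had received neither the inducing cocktail nor the polymer. Day 3 and day 6 cells had been induced with dexamethasone, insulin and IBMX, without or with 10 μg/mL P-G3 from induction on. All cells come from this 1 established line, which grows in culture without the other cells of fat tissue, and 1 library per group leaves no replicate. No difference below was tested, and the intervals given cover counting error only.

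The 5 libraries held between 92556168 and 179449285 UMIs each, and 18 day 0 barcodes were also listed in another library, 13 of them members. The members held 76658492 UMIs, with a median of 43636.5 UMIs and 5874 genes per cell, against 49569 UMIs and 6041 genes in contractile cells and 60665 UMIs and 6701 genes in dividing cells. The median mitochondrial share was 3.65% in members, 2.98% in contractile cells and 3.15% in dividing cells. Levels of a class are given in CPM over its summed UMIs, and those of a cell over its own UMIs. Each transcript is counted once at its 3′ end, so that no division by length was made.

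Of the genes described in most detail, Dlk1 lies at chr12:109452823-109463336, plus strand, Spp1 at chr5:104435118-104441050, plus strand, and Grem1 at chr2:113746164-113758646, minus strand, on GRCm38. Ccl2 lies at chr11:82035571-82037453, plus strand, Pparg at chr6:115360951-115490399, plus strand, and Fabp4 at chr3:10204088-10208576, minus strand.

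The markers that go with the label were present at very different levels. Dlk1 stood at 2168.5 CPM in the members (95% Poisson interval 2158 to 2179), against 2109 in contractile and 2006 in dividing cells, so that it marked all day 0 cells about alike. Spp1 stood at 1729.7 CPM (1720.4 to 1739.0) and Grem1, which encodes the BMP antagonist gremlin, at 134 CPM (131 to 137). Of the further preadipocyte markers, Thy1 had 101, Ly6a 129, Pdgfrb 46.8 and Pdgfra 44.0 CPM. Cd34, a marker of preadipocytes in fat tissue, was nearly absent, with 8 UMIs in all members (0.104 CPM). The adipocyte hormone gene Adipoq had 1 UMI in all members, and the lipid droplet gene Cidec had none, which allows at most 0.0391 CPM.

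Markers of macrophages, endothelium, epithelium and skeletal muscle were low, whereas single markers of chondrocytes and osteoblasts were not. The 12 macrophage markers summed to 7.42 CPM in the members, with 6 of 12 at 0, the 12 endothelial markers to 5.09 with 3 at 0, and the 10 epithelial markers to 0.404 with 6 at 0. The 12 skeletal muscle markers summed to 11.2 CPM in members, of which Des gave 4.54, against 21.7 CPM in contractile cells, with 6 of 12 at 0 in members. The 12 chondrocyte markers summed to 148 CPM, of which Sox9 alone gave 127, and the 11 osteoblast markers to 1105, nearly all of it Col1a1 at 1083. The members' own values go against the words non-contractile and non-dividing. An Acta2 UMI was found in 96.5% of thinned and 99.1% of unthinned members, at 1590 CPM, and the 26 listed contractile genes summed to 7145 CPM in members, against 13048.5 CPM in contractile cells. Over 37 G2 and M phase genes that the rule did not use, the members' 95th percentile was 3635 CPM, above the 5th percentile of dividing cells at 3115 CPM, and 322 members had between 1000 and 2000 CPM of the rule's division genes. Summed over 43 S phase genes, the members ranged between 372 and 5154 CPM (5th and 95th percentiles), with a 75th percentile of 3603.5 CPM. Their median was 1602 CPM, against 2341 in contractile and 2893 in dividing cells. Over the 37 G2 and M phase genes the medians were 1030, 1353 and 4679 CPM in the same order. On both lists the contractile cells thus stood above the members.

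The limits pass through a continuous range, with cells close on both sides. Over the 2867 non-dividing cells Acta2 had a median of 2606 CPM. The highest member had 2999.9 and the lowest contractile cell 3002.7 CPM, with 280 members between 2500 and 3000 and 251 contractile cells between 3000 and 3500. For the division genes the highest member had 1998 CPM and the lowest dividing cell below the Acta2 limit 2007, and 128 members had no UMI of these genes. The member with fewest UMIs had 10305, and 17 cells that met the other limits fell short of the UMI limit, the highest with 9223 UMIs.

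The most abundant transcripts of the members encode iron storage, cytoskeletal, calcium-binding and translation proteins. Mitochondrial genes and ribosomal protein genes with Rpl or Rps names were left out, which keeps the ribosomal protein gene Fau in. The iron storage gene Fth1 then led with 8320 CPM. It was followed by the calcium-binding S100a6 (6559), the galectin Lgals1 (6402), cytoplasmic actin Actb (6351), Tpt1 (5991), Fau (5798), the elongation factor Eef1a1 (5332) and the nuclear transcript Malat1 (5053). The secreted growth factor Ptn had 4414, the glycolytic enzyme Gapdh 3504 and the intermediate filament gene Vim 3051 CPM. The collagen gene Col1a2 had 2495 and Timp1, which encodes an inhibitor of metalloproteinases, 2051 CPM, close to the level of Dlk1. The 100 most abundant genes held 39.5% of the members' UMIs, and 17875 genes had at least 1 UMI.

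Against contractile cells, the members differed in few genes. Of the 5172 genes that reached 20 CPM in members or contractile cells, 9 (0.174%) were higher in the members by 2-fold or more and 5 (0.0967%) lower by as much. The rule used this contrast, so that the low Acta2 (1590 against 4796 CPM) and what goes with it describe the choice of cells. The highest ratio among genes with at least 50 CPM was that of Spp1, with 1729.7 CPM in members and 551 in contractile cells (log2 ratio 1.65, counting interval 1.63 to 1.67). Grem1 followed with 134 in members and 47.2 in contractile cells (1.49), then the collagen-binding proteoglycan gene Dcn with 186 and 70.3 (1.39), and Aebp1, whose product binds collagen, with 140 and 57.7 (1.27). The protease inhibitor gene Serpine2 had 74.2 CPM in members and 36.1 in contractile cells (1.02), a ratio that fell under 2-fold within bands of the chromosome 5 share described below. The rest of the 10 highest ratios were Thbs2 (0.98) and 4 genes of chromosome 5, among them the cGMP-dependent kinase gene Prkg2, with 411 CPM in members and 231 in contractile cells (0.83), and the sterol demethylase gene Cyp51 (0.92). The chemokine gene Ccl8 had 20.7 CPM in members and 7.23 in contractile cells (1.40).

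The lowest ratios belonged to the smooth muscle programme. Enteric smooth muscle actin, Actg2, had 42.6 CPM in members and 210 in contractile cells (log2 ratio -2.28), the myosin light chain gene Myl9 63.7 and 277 (-2.11), and Tagln, an actin-binding protein gene, 246 and 874 (-1.83). The LIM protein gene Csrp1 had 49.9 CPM in members and 108 in contractile cells (-1.10). Of 16 measured genes of the list of contractile smooth muscle genes, Acta2 included, 15 were lower in members, 14 of them at least 1.25-fold (as were 3.96% of all genes), with a median log2 ratio of -0.59 against 0.02 over all 5172 genes. The exceptions were Cald1 (-0.12), which stayed under that fold, and Tnnt2, with 76.1 CPM in members and 60.7 in contractile cells (0.32).

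The promoters of Acta2, Myl9, Cnn2 and Spp1 are printed to show where the CArG box stands. They are taken from RefSeq on GRCm38.p6, run 5′ to 3′ on the gene's strand and reach 250 bases before to 50 bases after the start, with CArG boxes in capitals. Acta2 (chr19:34255324-34255623, minus strand) and Spp1 (chr5:104434861-104435160, plus strand, the first of its 2 listed starts) hold no exact match. Myl9 (chr2:156775214-156775513, plus strand) holds 1 that begins 161 bases before the start, and Cnn2 (chr10:79988350-79988649, plus strand), a calponin gene, 1 that begins 56 bases before it. An exact match reads CC, then A and T bases only, then GG. Sites that differ from it in 1 base were not searched for. Acta2 holds such sites, ccctatatgg and ccttgtttgg, left in lower case, so that the strict pattern alone does not show that it lacks a CArG box.
Acta2: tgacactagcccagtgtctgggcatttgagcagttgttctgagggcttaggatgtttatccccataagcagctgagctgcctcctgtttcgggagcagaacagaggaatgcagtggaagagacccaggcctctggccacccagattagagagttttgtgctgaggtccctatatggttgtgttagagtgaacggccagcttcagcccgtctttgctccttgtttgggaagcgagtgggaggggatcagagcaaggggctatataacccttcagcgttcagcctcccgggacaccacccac
Myl9: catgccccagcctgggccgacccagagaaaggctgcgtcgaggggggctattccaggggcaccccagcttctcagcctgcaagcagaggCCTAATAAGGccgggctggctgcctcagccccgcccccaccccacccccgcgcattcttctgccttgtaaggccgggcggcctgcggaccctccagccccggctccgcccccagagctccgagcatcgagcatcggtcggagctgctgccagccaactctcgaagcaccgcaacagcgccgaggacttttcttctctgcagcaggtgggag
Cnn2: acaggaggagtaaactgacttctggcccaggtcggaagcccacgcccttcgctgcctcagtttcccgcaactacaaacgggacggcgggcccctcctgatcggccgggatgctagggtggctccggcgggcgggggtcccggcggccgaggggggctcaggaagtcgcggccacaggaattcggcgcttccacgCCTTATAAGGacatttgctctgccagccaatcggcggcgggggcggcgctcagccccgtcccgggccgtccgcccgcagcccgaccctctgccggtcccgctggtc
Spp1: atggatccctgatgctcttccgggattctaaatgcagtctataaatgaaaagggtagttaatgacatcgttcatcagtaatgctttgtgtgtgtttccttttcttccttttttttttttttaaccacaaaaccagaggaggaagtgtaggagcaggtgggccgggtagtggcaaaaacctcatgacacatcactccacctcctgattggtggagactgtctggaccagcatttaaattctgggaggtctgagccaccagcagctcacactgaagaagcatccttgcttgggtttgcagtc

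Both strands were searched for the CArG box, which reads the same on either. It occurs in 6 of 27 promoters of the listed contractile genes (22.2%; Acta1, Cnn2, Fhl1, Myl6, Myl9 and Vcl), against 535 of all 32851 promoters of the same length (1.63%). Of the 26 listed genes 22 had an entry in the promoter table. Myl9 and Cnn2 were among the 10 lowest genes of the comparison, with log2 ratios of -2.11 and -0.71, whereas Myl6 stood at 1151 CPM in members and 1601 in contractile cells (-0.48). Actg2, Tagln, Acta2 and Csrp1, all at least 2-fold lower in members, are not among the genes with an exact match. Whether a match goes with the ratio was not tested. A match describes these letters only.

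Smaller differences of at least 1.25-fold, a limit chosen after the values were seen, ran through several gene groups. In all, 389 genes (7.52%) were higher in members by that fold and 205 (3.96%) lower, but the balance depends on the scaling, since TMM factors gave 255 higher and 340 lower genes, and median-of-ratios factors 240 higher and 361 lower ones. Of all 5172 genes 54.0% had a log2 ratio above 0, but 40.6% with TMM factors and 39.1% with median-of-ratios factors. The counts of higher and lower genes below are to be read beside these shares. All 17 measured genes of the ATF4 stress response, many of which serve amino acid synthesis and transport, were lower in members, 14 of them by 1.25-fold (median log2 ratio -0.43). Asparagine synthetase, Asns, had 226 CPM in members and 380 in contractile cells (-0.74), and the serine synthesis gene Phgdh 281 and 379 (-0.43). Glycolysis genes were lower in 13 of 14, 7 of them by that fold (-0.33), with Ldha at 896 in members and 1217 in contractile cells. Cholesterol synthesis genes were higher in 17 of 18, 5 of them by that fold (0.26). Of 15 collagen genes 11 were lower (-0.20), 3 of them by that fold, and 1 was higher by it, with Col4a1 at 330.1 in members and 420 in contractile cells. The medians of these 4 lists kept their sign under both other scalings. Among cells of the second band and among those of the third band of the chromosome 5 share described below, the medians were nearer 0 for the cholesterol list (0.09 in both), for glycolysis (-0.21 and -0.13) and for ATF4 genes (-0.31 and -0.32), and collagens had -0.08 and -0.23. All 12 measured mitochondrial transcripts were higher in members (0.31), and so were all 4 nuclear transcripts (0.27), with Malat1 at 5053 in members and 4004 in contractile cells. Their part in the other differences was not tested.

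Preadipocyte genes differed in part between these classes. Of 11 measured preadipocyte markers 4 were at least 1.25-fold higher in members (as were 7.52% of all genes) and 2 were lower by 1.25-fold (3.96% of all genes). The 2 that were at least 2-fold higher were Spp1 and Grem1. Both are markers given with the label, so that this count is no independent support for it. Of 18 measured preadipocyte and progenitor genes 2 were at least 1.25-fold higher in members and 2 lower, against the same shares of all genes. Pdgfra, a receptor gene of mesenchymal progenitors on chromosome 5, had 44.0 CPM in members and 25.95 in contractile cells (log2 ratio 0.74), and Ly6a 129 and 96.5 (0.41). Thy1 had 101 in members and 140 in contractile cells (-0.48). Pparg had 14.7 CPM in members (13.9 to 15.6) and 14.2 in contractile cells (0.05, counting interval -0.07 to 0.18), so that a difference was not detectable at this depth. Cebpa, the partner of Pparg in late adipogenesis, had 1.59 in members and 1.63 in contractile cells. Cebpd, which acts early in adipogenesis, had 35.7 in members and 53.3 in contractile cells (-0.57), and Cebpb 238 and 239.

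Along Acta2, the levels differed by degrees and not at the limit. In members with less than 500 CPM of Acta2, Spp1 stood at 3505 CPM, and it was lower in each following range, with 905 in members between 2500 and 3000. In contractile cells above 6000 it stood at 301. Grem1 stood at 241, 77.2 and 29.8 CPM in the same 3 ranges, and Dcn at 402, 100.5 and 57.0. Dlk1 showed no such gradient, with 2381 CPM in the lowest range and 2084 above 6000, and Pparg lay between 12.1 and 16.1 CPM in all 10 ranges. Ccl2 lay between 353 and 373 CPM below 1500 CPM of Acta2 and between 218 and 272 in the other members. The median UMI count per cell was 35608 in the lowest range and 46686 in members between 2500 and 3000, and the mitochondrial share 4.16% and 3.25%.

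**Figure D1:**
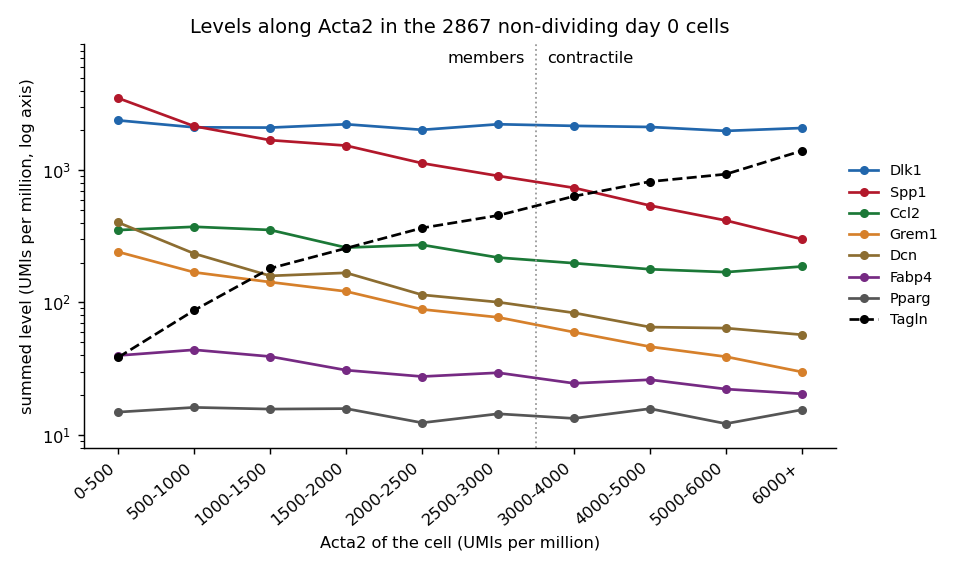
Summed levels of 8 genes (CPM, log axis) in 10 ranges of Acta2 over the 2867 non-dividing day 0 cells, with members left of the dotted line at 3000 CPM and contractile cells right of it. Spp1, Grem1 and Dcn are lower and Tagln is higher in each higher range, except Dcn between 1500 and 2000, while Dlk1 and Pparg stay nearly level.

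Over the member cells, the spread differed widely between genes, and its order depended on the measure. Each cell was thinned to 10000 UMIs, and the variance over the mean of the thinned counts, which is 1 for counting alone, was 1.15 in the median of 2503 genes with at least 50 CPM and at least 2 in 149 of them. Malat1 led with 62.9, followed by Spp1 (36.5), Ptn (20.1), Fth1 (14.9), Timp1 (13.5), the histone gene Hist1h2ap (10.9) and Ccl2 (10.7). Dlk1 stood in place 10 with 8.23. Mdm2, which encodes the ubiquitin ligase of p53, stood at 1275 CPM with a ratio of 7.50, and Dcn at 7.33. Grem1 had 3.28 and Fabp4 2.77. This ratio grows with a gene's level. The squared coefficient of variation beyond counting, which does not, was 5.09 for Fabp4, 3.34 for Ccl2, 3.21 for the histone gene Hist1h1b, 2.77 for Dcn, 1.88 for Spp1, 0.622 for Timp1, 0.406 for Ptn, 0.320 for Dlk1 and 0.163 for Fth1. Pparg had a variance over mean of 1.01, but at 0.146 UMIs per thinned cell this depth cannot show how evenly it is spread.

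**Figure D2:**
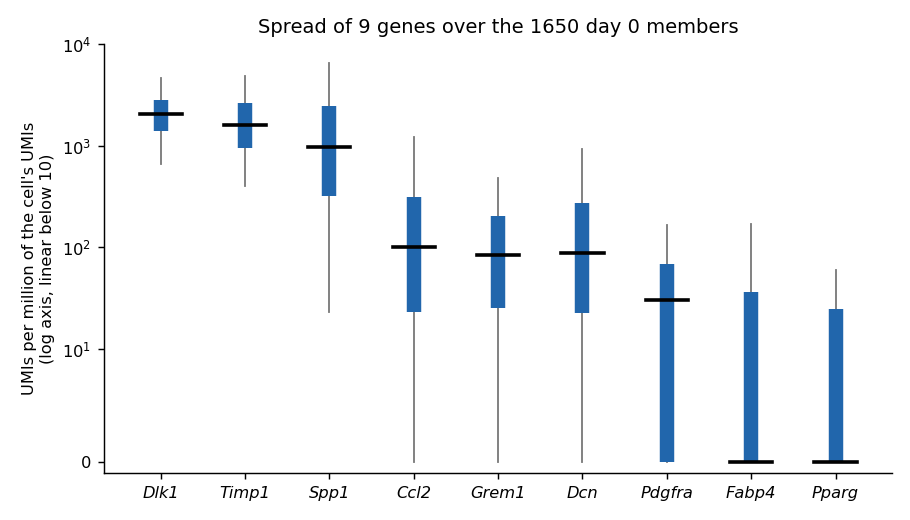
Percentiles of 9 genes over the 1650 members, in CPM of each cell's own UMIs (log axis, linear below 10). The black line is the median, the blue bar spans the 25th to 75th and the thin line the 5th to 95th percentile. Dlk1 spans 665 to 4575 and Spp1 23.2 to 6484 CPM, and the medians of Fabp4 and Pparg are 0.

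Dlk1 was found in every member. Its level per cell had a 5th percentile of 665, a median of 2055 and a 95th percentile of 4575 CPM. Thinned to 10000 UMIs, 99.9% of members had a Dlk1 UMI, against 100% of both contractile and dividing cells. The range between cells was thus about the level and not about presence.

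Spp1 combined a high level with a wide range. Its 5th percentile was 23.2, its median 975 and its 95th percentile 6484 CPM, and 65 members had none. The thinned share of cells with a UMI was 90% in members (Clopper-Pearson 95% interval 88.5 to 91.4), against 75.7% in contractile and 89.5% in dividing cells. Without thinning it was 96.1% in members, 93.8% in contractile and 99.4% in dividing cells.

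Ccl2, the chemokine that attracts monocytes, was concentrated in fewer cells. Its median was 101 and its 95th percentile 1222 CPM, and 318 members (19.3%) had none. The thinned share with a UMI was 58.0% in members (55.6 to 60.4), 54.4% in contractile and 70.2% in dividing cells. The unthinned share was 80.7% in members, 82.8% in contractile and 94.9% in dividing cells.

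Pparg and Fabp4 were rare in single cells. A Pparg UMI was found in 13.5% of thinned members (11.8 to 15.2), in 14.1% of contractile and in 16.2% of dividing cells, and in 44.9%, 48.9% and 52.4% of them without thinning. Fabp4 was found in 18.8% of thinned members (17.0 to 20.8), 16.8% of contractile and 23.2% of dividing cells, and in 43.0%, 44.5% and 51.7% without thinning. The 95th percentile over members was 58.9 CPM for Pparg and 171 for Fabp4, with medians of 0 for both. No cell class of the day 0 library is known to lack these genes, so that the share which free RNA in the droplets gives is unknown here. At the thinned depth 1 UMI equals 100 CPM, above the mean level of both genes.

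The genes closest to Dlk1, Spp1, Ccl2 and Grem1 from cell to cell were looked up. The rank correlations (Spearman's rho) given here are taken over the 1650 members on thinned counts, with 1288 genes compared, and describe cells that share 1 library. Ccl2 went with its neighbour on chromosome 11, Ccl7, which encodes a related chemokine (rho 0.48). The next closest to Ccl2, Hint1 (0.25) and Nme2 (0.25), lie on chromosome 11 too. The 6 genes closest to Spp1 were Prkg2 (0.37), Chchd2 (0.36), Igfbp7 (0.34), Ran (0.31), Atp5j2 (0.28) and Grem1 (0.27), and all but Grem1 lie on chromosome 5, as Spp1 does. Closest to Dlk1 were the matrix genes Bgn (0.35) and Pcolce (0.35), and closest to Grem1 was Aebp1 (0.29). Acta2 went with Tagln (0.46) and Myl9 (0.35). Dlk1 and Spp1 were nearly unrelated (0.01). Pparg and Fabp4 had a rho of 0.04. At 0.146 and 0.347 UMIs per thinned cell, this depth cannot show whether these 2 genes go together. The correlations of the named pairs moved by less than 0.1 in the 1117 members with 30000 to 60000 UMIs.

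Chromosome 5 stood apart from all others in the members, a pattern found in the data and not looked for beforehand. Of its 358 measured genes 220 (61.5%) were at least 1.25-fold higher in members than in contractile cells, against 164 of 4799 (3.42%) on the other chromosomes. Put the other way, 56.6% of the 389 higher genes lie on chromosome 5, which holds 6.92% of the genes measured. The median log2 ratio of its genes was 0.36, and the medians of the other chromosomes lay between -0.09 and 0.09. In each of 16 stretches of 10 Mb along the chromosome the median lay between 0.30 and 0.70. The highest medians, 0.70 and 0.52, came from stretches with 1 and 3 measured genes. In stretches with at least 13 genes the median lay between 0.30 and 0.46. All counts here rest on the gene positions of GENCODE vM21, which fits GRCm38.

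**Figure D3:**
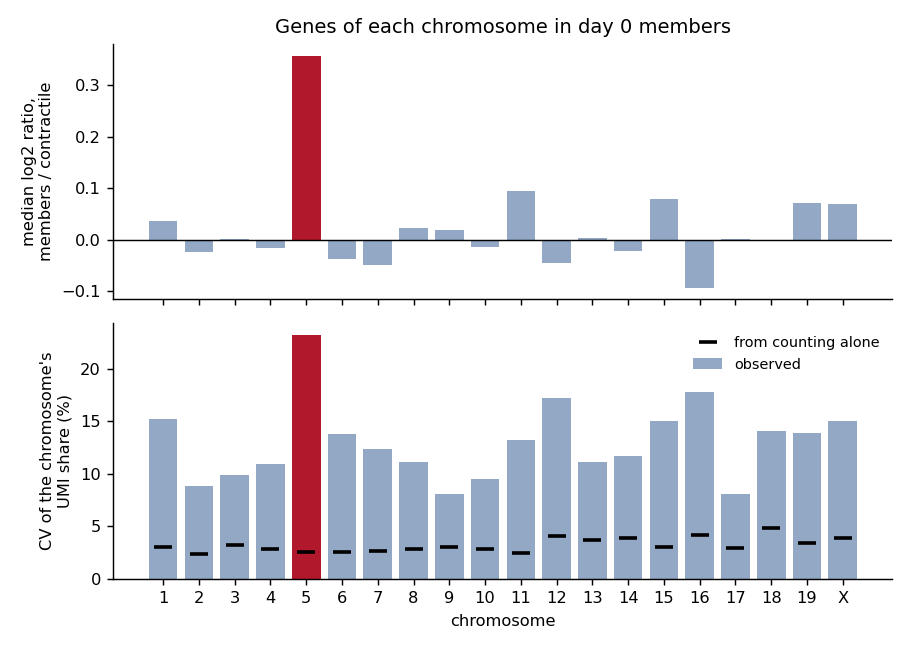
Upper panel, median log2 ratio of members over contractile cells for the genes of each chromosome. Lower panel, coefficient of variation over members of each chromosome's share of UMIs (bars, %) with the value that counting alone gives (black marks). Chromosome 5, in red, has the highest median, 0.36, and the highest variation, 23.2% against 2.56% from counting.

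The share of a cell's UMIs that came from chromosome 5 fell into separate groups of cells. It was computed without the 161 genes above 1000 CPM, Spp1 among them. Over the members its coefficient of variation was 23.2%, against 8.02% to 17.8% for the other chromosomes. Counting alone gives 2.56% for chromosome 5 and 2.38% to 4.87% for the others, so that all varied beyond counting. Peaks were read from a smoothed density (kernel width 0.15 points) and had to reach 0.02 of the cells per point. They were looked for in the chromosome 5 share only. Its distribution had peaks at shares of 3.77, 5.41, 7.0, 8.66 and 9.99%, 1.33 to 1.66 points apart. Contractile cells had peaks at 3.69, 5.42 and 7.04%, close to the first 3 of the members. The 315 dividing cells had less evenly spaced peaks, at 3.74, 4.32, 5.4, 7.02, 8.72, 9.85 and 10.72%. That at 4.32% rests on few cells, with 2 between 4.2 and 4.3% and 1 between 4.4 and 4.5%. Its density of 0.024, and that of the members' peak at 3.77% (0.022), barely passed the limit. Limits at 4.5, 6.2 and 7.9%, set after the distribution was seen, give 4 bands, and 63 members lie within 0.1 points of a limit. The lowest band held 42 members, the second 518, the third 694 and the highest 396. The third and highest bands together held 66.1% of members (63.7 to 68.3), 16.3% of contractile cells (14.2 to 18.5) and 53.3% of dividing cells (47.7 to 58.9). The number of chromosomes per cell was not measured.

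**Figure D4:**
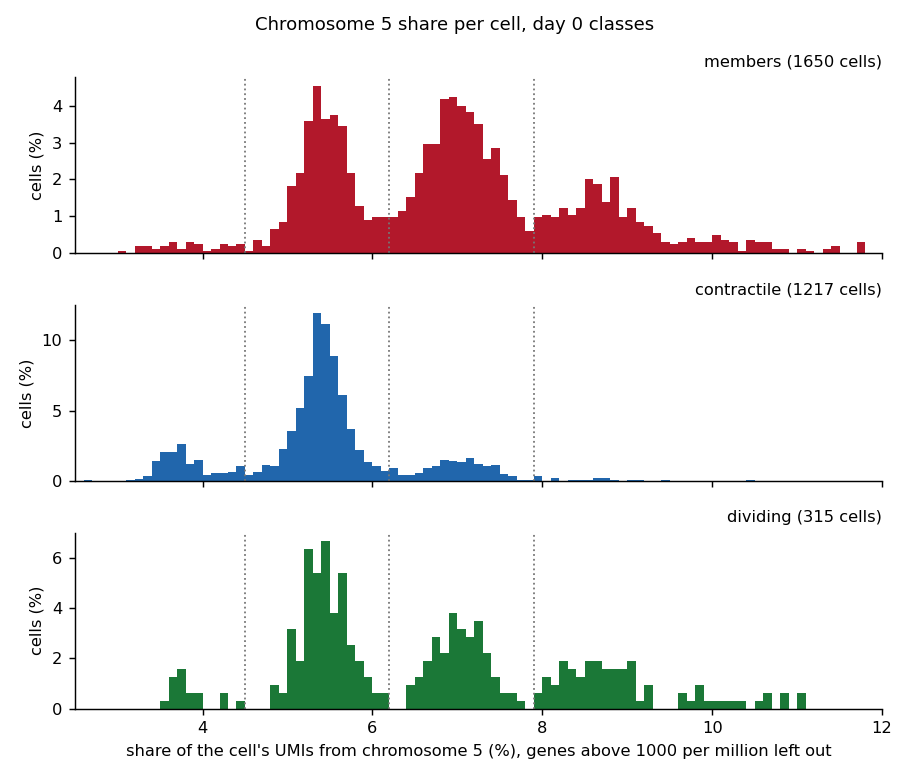
Share of each day 0 cell's UMIs that came from chromosome 5 (%), as percent of the cells of a class in steps of 0.1, for members, contractile and dividing cells from top to bottom. Dotted lines are the band limits at 4.5, 6.2 and 7.9%. Members show 2 main peaks near 5.41 and 7.0% and a smaller one near 8.66%, and most contractile cells lie in the peak near 5.42%.

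Separate peaks were seen in the later libraries too. Cells of the same rule had peaks at 5.08, 6.6, 7.98 and 9.30% on day 3 without polymer, beside a small one at 3.63%, and at 4.73 and 6.03% on day 6 without polymer, beside one at 3.24%. These positions are lower than on day 0. The shares of cells in bands were therefore not compared between libraries.

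Membership itself went with the bands. Of the non-dividing day 0 cells 18.8% were members in the lowest band (13.9 to 24.6), 38.2% in the second (35.6 to 40.8), 79.7% in the third (76.9 to 82.3) and 94.96% in the highest (92.4 to 96.9). Their median Acta2 was 4659, 3542, 1890.1 and 737 CPM in the same order. Within the members alone, Acta2 stood at 1923, 1990.2, 1605 and 912 CPM.

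Among the members, Spp1, Grem1 and Fabp4 differed widely between the bands. Spp1 stood at 395 CPM in the lowest band, 608 in the second, 1598 in the third and 3863 in the highest. Grem1, on chromosome 2, stood at 68.5, 63.2, 135 and 248 CPM. Fabp4, on chromosome 3, stood at 18.8, 17.3, 32.9 and 65.4, and Ccl2, on chromosome 11, at 193, 207, 311 and 432 CPM. Dlk1 ranged less widely, with 1578, 1957, 2254 and 2400 CPM, and Pparg had 16.1, 13.2, 14.9 and 16.5. The median UMI count was 48474, 45486, 43852 and 40985 in the same order, and the mitochondrial share 3.34, 3.49, 3.69 and 3.76%. The part of these in the differences was not tested.

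**Figure D5:**
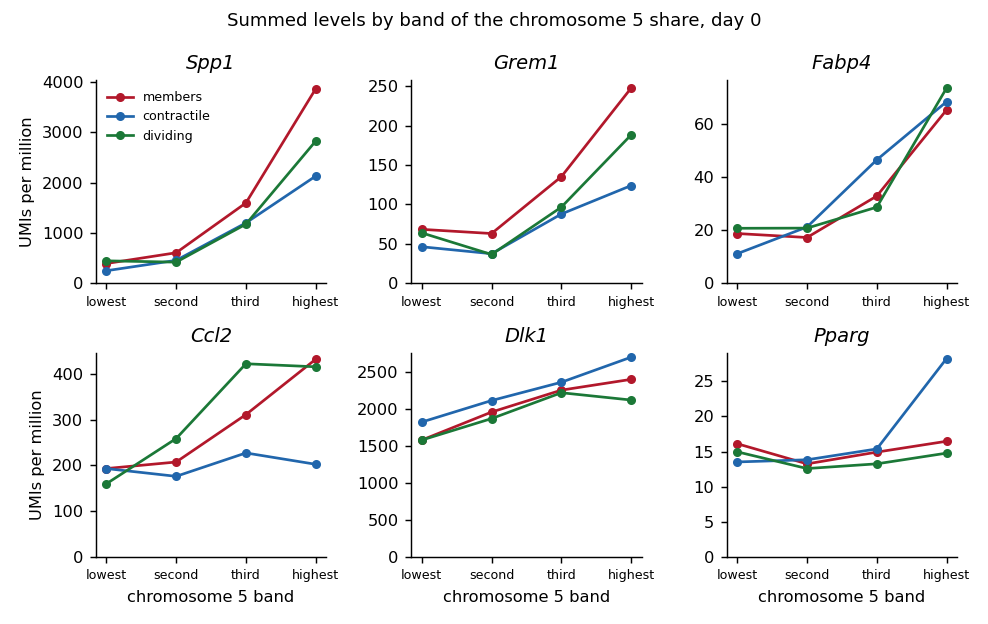
Summed levels of 6 genes (CPM, axes from 0) in the 4 bands of the chromosome 5 share, for members, contractile and dividing day 0 cells. Spp1, Grem1 and Fabp4 are highest in the highest band in all 3 classes, and Dlk1 and Pparg differ less. The highest band holds 21 contractile cells and the lowest 17 dividing cells.

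The members of the upper 2 bands were then set against those of the lower 2. The median log2 ratio of upper over lower was 0.58 for 386 genes of chromosome 5, which the bands themselves fix, and 0.03 for 4850 genes elsewhere. Outside chromosome 5, 3 genes were higher by 2-fold or more in the upper bands and 4 lower. Grem1 had 173 CPM in the upper and 63.6 in the lower bands (log2 ratio 1.43), Fabp4 43.9 and 17.4 (1.29), and Serpine2 92.7 and 40.9 (1.16). Among genes with at least 50 CPM, Thbs2 followed with 62.1 and 31.9 (0.94), Aebp1 with 169 and 88.4 (0.92), and Dcn with 223 and 118 (0.91). Actg2 had 27.7 CPM in the upper and 69.3 in the lower bands (-1.29), and Myl9 43.0 and 101 (-1.21). Within contractile cells the same split gave log2 ratios of 1.2 for Grem1, 1.29 for Fabp4, 1.38 for Serpine2 and -0.97 for Actg2, and within dividing cells 1.77, 1.21, 1.75 and -2.34, so that the direction was the same in all 3 classes.

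Within 1 band, members and contractile cells were closer. In the second band, 518 members and 838 contractile cells differed by at least 2-fold in 1 gene upward and 4 genes downward. There the median log2 ratio of chromosome 5 genes was -0.01, Spp1 stood at 608 CPM in members and 458 in contractile cells (0.41), and Grem1 at 63.2 and 37.6 (0.73). In the third band, with 694 members and 177 contractile cells, Spp1 had 1598 CPM in members and 1201 in contractile cells (0.41), Grem1 135 and 87.9 (0.62) and Dcn 205 and 107 (0.94). Serpine2, 2-fold apart over all bands, had log2 ratios of 0.54 and 0.02 in these bands, Cyp51 lay between -0.07 and 0.00 and Prkg2 between -0.03 and 0.03. The contractile genes stayed far apart, with Tagln at 329 CPM in members and 899 in contractile cells of the second band (-1.45). Fabp4 was lower in members within each of these bands, with 17.3 in members and 21.3 in contractile cells of the second band (-0.28) and 32.9 and 46.6 in the third (-0.49), whereas over all bands it was higher in members (34.4 against 23.8 CPM, 0.51).

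Against dividing cells, 4 of 5390 genes (0.0742%) were higher in members by 2-fold or more and 149 (2.76%) lower, and at 1.25-fold 381 (7.07%) were higher and 634 (11.8%) lower. The rule used this contrast too, and all 46 measured genes of the G2 and M phase list were lower, 43 of them at least 2-fold. Gas6, a secreted ligand whose gene is known from growth arrest, had 56.5 CPM in members and 23.2 in dividing cells (log2 ratio 1.25), and the cyclin-dependent kinase inhibitor gene Cdkn1a 146 and 72.5 (1.00). The antiproliferative gene Btg2 had 25.7 in members and 7.33 in dividing cells (1.68). The list of cyclin D and cell cycle inhibitor genes was evenly split, however. Of its 17 measured genes 9 were higher in members and 8 lower, with 4 each way at 1.25-fold and a median of 0.06. Of all 5390 genes 47.2% had a log2 ratio above 0, with a median of -0.02. Cholesterol synthesis genes were higher in 18 of 18 (median 0.44), collagen genes in 14 of 15 (0.32) and immediate early genes in 8 of 12 (0.42). ATF4 stress genes, by contrast, were lower in 17 of 17 (-0.45). Contractile smooth muscle genes were lower in members in 15 of 16 (-0.26). The dividing class had no Acta2 limit, and only 194 of its 315 cells lay below the limit that all members met. This contrast thus differs in Acta2 as well as in division, and the part of each in the levels that follow was not tested. Spp1 had 1729.7 CPM in members and 1198 in dividing cells (0.53), Ccl2 299.8 and 334 (-0.16), Dlk1 2168.5 and 2006 (0.11), Pparg 14.7 and 13.4 (0.13) and Fabp4 34.4 and 35.5 (-0.04).

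After induction, a minority of genes stood 2-fold apart. Of 5732 genes, 254 (4.43%) were at least 2-fold higher in day 0 members than in the 2636 such cells of day 3 without polymer, and 370 (6.45%) lower. Spp1 stood at 1729.7 CPM in day 0 members, 39.8 on day 3 and 65.9 on day 6 without polymer. The other highest ratios of day 0 members over day 3 were those of Ccl2 (299.8 against 17.9 CPM, log2 ratio 3.99), Ccl7 (169 against 10.5, 3.89), Timp1 (2051 against 140.3, 3.86) and the troponin gene Tnnt2 (76.1 against 4.68, 3.76). Dlk1 was at 2168.5 on day 0, 520.3 on day 3 and 326 on day 6, and Grem1 at 134, 19.1 and 2.17 CPM.

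The genes of the fat cell ran the other way. Fabp4 stood at 34.4 CPM in day 0 members, 7944 on day 3 and 23193 on day 6, and Pparg at 14.7, 93.2 and 249.7. The lipase inhibitor gene G0s2 had 0.548 CPM in day 0 members and 487 on day 3 (log2 ratio -8.30), the hormone gene Retn 0.0913 and 171 (-7.30), and the fatty acid transporter gene Cd36 0.170 and 70.2 (-5.93). These ratios of genes near 0 on day 0 depend on the pseudocount, and over the alternatives they ran between -9.56 and -6.47 for G0s2, -9.80 and -5.11 for Retn, and -8.03 and -3.86 for Cd36. The lipid droplet gene Cidec and the complement factor gene Cfd had no UMI in the members, against 112 and 58.2 CPM on day 3. With P-G3, cells under the same limits had 69.5 CPM of Spp1 on day 3 and 53.9 on day 6, and 434.9 and 255 CPM of Dlk1. Of the listed barcodes 50.8% met the limits on day 0, 71.4% on day 3 and 27.9% on day 6 without polymer, and the median mitochondrial share of these cells was 3.65% on day 0, 6.61% on day 3 and 6.43% on day 6. The part of these in the differences was not tested. Each later value comes from 1 library, and day and library cannot be told apart.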

How the data were processed

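The authors deposited 1 matrix of UMI counts per library, genes by cell barcodes, from a 3′ protocol per the labels. Cell Ranger 3.1.0 and GRCm38 are given in the submitters' processing notes, but per the file headers the matrices were written by version 5.0.1, and which one made the counts is uncertain. The counts as deposited were summed over the cells of a class and scaled to counts per 1000000 UMIs (CPM). Log2 ratios used a pseudocount of 1 CPM, over genes with at least 20 CPM in either class. With 1 library per group nothing was tested, and 95% Poisson, Clopper-Pearson and conditional binomial intervals cover counting error only, since cells are not replicates. A count of 0 allows up to 3 UMIs. Shares, spreads and correlations used cells thinned to 10000 UMIs. TMM factors came from edgeR 4.0.16 in R 4.3.3, and the rest from Python 3.11.15 with numpy 2.4.6, scipy 1.17.1 and pandas 2.3.3. The steps were checked on simulated data. Doublets were not removed.

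Named genes were the 10 highest and 10 lowest ratios of a comparison among genes with at least 50 CPM. Their sign was the same with TMM factors, median-of-ratios factors and library totals. Mitochondrial, ribosomal protein (Rpl and Rps names), rule and unnamed genes were left out. The genes with most UMIs (20) and the largest spread (15), the closest correlations, the leading genes of each list and a fixed set of preadipocyte genes were added. Ccl8 and Btg2, and the genes of the band comparison, were chosen after their values were seen. The members and the 34 gene lists were chosen with earlier results of these data known. The bands, the chromosome counts and the 1.25-fold limit were added after the data were examined. Gene positions were matched by Ensembl ID.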

Additional observations from a re-analysis of the deposited data

How the results depend on the processing

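No paired analysis was possible because each group has 1 library and nothing was tested. The 14 genes at least 2-fold apart from contractile cells became 42 without the filter on low levels, 22 with an Acta2 limit of 1500 CPM, 152 (99 higher, 53 lower) between cells below 1500 and above 6000, 5 within the second and 6 within the third band of the chromosome 5 share. Against dividing cells the count was 153, with 101 at a filter of 50 CPM and 246 without one, and against day 3 it was 624, with 351 and 1334. The chromosome 5 median of 0.36 was 0.25 without the filter, 0.67 between the far ends of Acta2, -0.0062 in the second band and 0.0022 in the third. The band comparison fixes that share by construction. Thinned to 5000 UMIs, the share of members with a UMI was 83.3% for Spp1, 45.6% for Ccl2, 6.12% for Pparg and 12.6% for Fabp4, and 60 genes in place of 149 reached a variance over mean of 2, with fewer UMIs per cell. Without thinning the shares were 100% for Dlk1, 96.1% for Spp1, 80.7% for Ccl2, 44.9% for Pparg and 43.0% for Fabp4. An Acta2 limit of 1500 gave 91.7% for Spp1, 21.1% for Fabp4 and 81.4% of members in the upper 2 bands, in place of 66.1%, and a limit of 6000 gave 84.9% for Spp1 and 48.4% in those bands. Of the log2 ratios of named genes under all alternatives, 5758 stayed within their counting interval or within 0.05 of the reported value and 2001 moved further, and 0 of those at least 2-fold apart took the other sign. The lack of replicate libraries limits every comparison, and Pparg and Fabp4 fall under 1 UMI per cell once cells are thinned.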
